A study of Mus musculus with 4 samples.

Results

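The genes described here encode proteins that remodel nucleosomes or that write, erase and read marks on histones and on DNA. They were chosen by name: the SWI/SNF and ISWI remodellers (symbols starting Smarc), the CHD remodellers, histone deacetylases and sirtuins, lysine acetyltransferases, lysine demethylases, DNA methyltransferases and methyl-CpG-binding proteins, together with Sgf29, Ezh1, Ezh2, Eed, Suz12, Uhrf1 and Ring1. Kdm5c, Kdm5d and Kdm6a were left out. The rule found 57 of 12422 probe sets, which stand for 45 of 8251 genes, and each gene was represented by its brightest probe set. Of the 45 genes, 40 passed the filter on low values and 5 did not.

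Expression was measured on microarrays in a mouse Th1 clone, a cultured line of helper T cells that secrete interferon gamma. Control arrays 1 and 2 hold RNA of the normal, resting clone, and anergic arrays 1 and 2 hold RNA of the clone made anergic with plate-bound antibody to CD3, a chain complex that passes on the T cell receptor's signal. An anergic T cell reacts weakly when stimulated again, and the study asked which genes differ in such cells. A clone does not stand for a mixed population of T cells. No source used here gives the strain, the time on antibody or the number of cultures, so the p-values cover variation among arrays only, and that variation may be technical.

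The values are intensities on a linear scale that had been scaled before deposit, with array medians between 134.2 and 191.2. The geometric mean of 9 spike-in probe sets of bacterial genes was 1972 on control array 2, which stood apart, and between 870.4 and 1014 on the other arrays. The T cell markers were bright: 7 of 7 passed the filter and no value was below 2068. None passed in limma, with 1 higher and 1 lower at an unadjusted p under 0.05 (6.32% and 6.38% of all genes). Of 27 markers of B cells, macrophages and dendritic cells, granulocytes, erythroid cells and platelets, and fibroblasts, 12 passed the filter. Their summed intensity was between 5680 and 7677 on the control arrays and between 8187 and 9229 on the anergic arrays. The macrophage-associated gene Cd68 rose, from 71.0 and 91.3 to 497.6 and 531.5. Of the other 6 macrophage and dendritic cell markers, Cd14 was between 684.4 and 931.9 and Csf1r between 117.6 and 344.1 over the 4 arrays. Itgax was between 43.7 and 146.7, and Itgam did not exceed 33.6. Lyz2 went the other way from Cd68, at 129.1 and 73.3 on the control arrays and at 11.7 and 11.4 on the anergic arrays. Adgre1 was at 24.0 and 20.2 on the control arrays and at 36.4 and 36.9 on the anergic arrays. Lyz2, Adgre1 and Itgam were below the filter and not tested. The stromal gene Lum was at 1674 and 2519 on the control arrays and at 4398 and 3752 on the anergic arrays, and did not pass (adjusted p = 0.115, limma). Of the other stromal markers, Col1a2, Col1a1, Col3a1 and Fn1 had lower means on the anergic arrays, and the dim Dcn a higher one. Control and anergic means were 1327 and 1300 for Col1a2, 297.1 and 264.8 for Col1a1, and 87.05 and 65.5 for Col3a1. They were 31.4 and 21.2 for Fn1 and 23.5 and 57.65 for Dcn. The part of these markers in the results below was not tested.

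DNA in the nucleus is wrapped around histones, and how tightly it is packed decides which genes can be read. Acetyltransferases loosen this packing and mark active genes, deacetylases undo it, Polycomb complexes and DNA methylation keep genes silent, and remodellers use ATP to slide or evict nucleosomes. In T cells these proteins help to fix which cytokine genes a clone can switch on.

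Differences are given as log2 of anergic over control, computed on log2(intensity + 29.15), so that the change of dim genes is understated. They were tested with limma over all 5583 genes and called at a Benjamini-Hochberg adjusted p under 0.05. In bulk RNA a change in the number of cells that express a gene and a change in RNA per cell cannot be told apart.

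Most chromatin genes differed little between the groups. Sgf29 was called lower, no chromatin gene was called higher, and the other 39 did not pass in limma. Over all genes 2.17% were called, 1.33% higher and 0.842% lower in anergic cells. Sgf29 had been put on the list by name, so nothing is read from this count. At an unadjusted p under 0.05, 1 chromatin gene was higher (Ezh1) and 3 were lower (Sgf29, Kat2a and Mbd2), where 12.7% of all genes had such a p, 6.32% higher and 6.38% lower. Over single probe sets, of which 1.34% were called, the probe set of Sgf29 was again the only one of these genes to pass (limma adjusted p = 0.00633). By sign, 18 of the 40 were higher and 22 lower (55%), and over all genes 58.1% were lower and 41.9% higher, to which the sign counts of all lists here compare. The median log2 difference was -0.03 for the 40 chromatin genes and -0.09 for all genes. The median size of the difference, without its sign, was 0.26 against 0.28. The difference was under 0.5 in size in 32 of the 40 chromatin genes (80%) and in 74.1% of all genes. Control and anergic arrays were fully separated in 13 of the 40 chromatin genes (32.5%), 5 with higher and 8 with lower anergic arrays. Over all genes this share was 41.3%, of which 17.3% were higher and 24% lower.

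**Figure D1:**
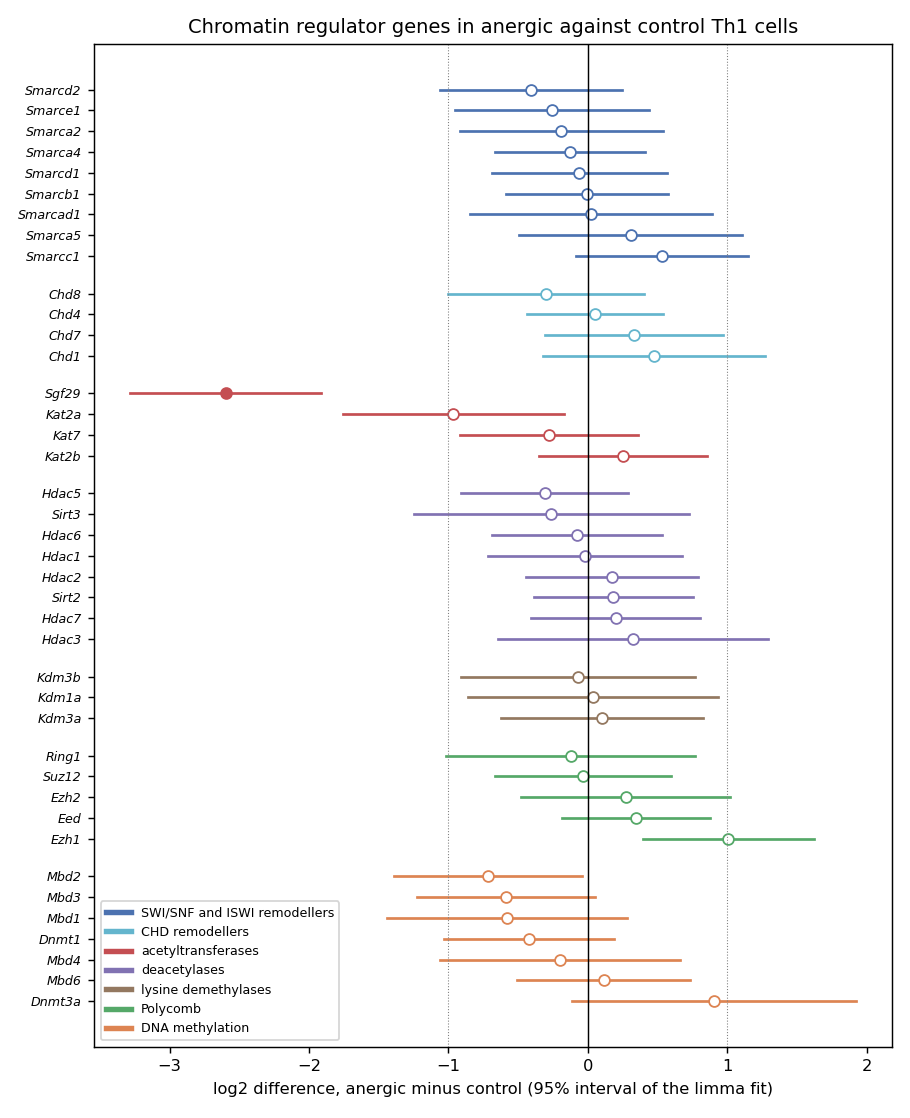
Log2 difference of anergic minus control cells (x axis) for the 40 chromatin genes that passed the filter, grouped and coloured by role. Points are limma estimates from 2 arrays per group, lines their 95% intervals, a filled point an adjusted p under 0.05 and dotted lines a difference of -1 or 1. Sgf29 at -2.60 stands far to the left of the rest, and Ezh1 at 1.01 is the farthest to the right.

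The precision of 4 arrays sets what these tests could show. The 95% intervals of the chromatin genes reached from 0.49 to 1.02 on either side of the estimate. In 22 of the 40 genes the whole interval lay between -1 and 1. Because of the pseudocount, a 2-fold difference in intensity is smaller than 1 on this scale, most so for dim genes. It can therefore still lie inside the interval of a dim gene. Among all genes, the smallest difference that was called was 0.98 in size.

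**Figure D2:**
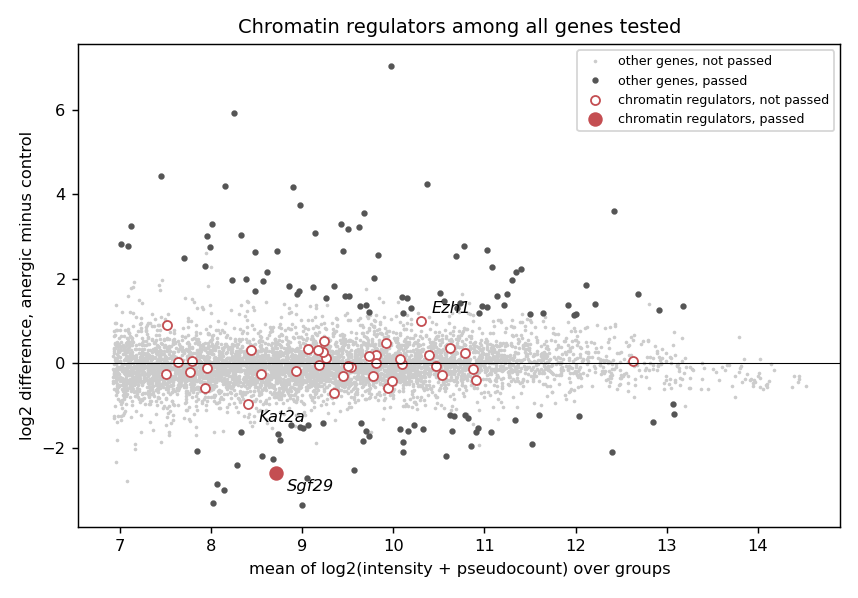
Log2 difference of anergic minus control cells (y axis) against the mean log2 intensity over both groups (x axis) for all 5583 genes tested. Red rings are chromatin genes that did not pass, the filled red point is Sgf29, and black points are other genes that passed the test. The rings lie within the grey cloud of genes that did not pass.

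The clearest change was in Sgf29, which is counted here with the acetyltransferases, and no Kat gene passed in limma. Sgf29 encodes a subunit of SAGA, a large coactivator complex, and of the related ATAC complex, in which its Tudor domains bind methylated histone H3 at active promoters. Sgf29 was at 1072 and 938.1 on control arrays 1 and 2 and at 129.5 and 154.6 on anergic arrays 1 and 2. The groups were far apart and each pair of arrays was close together. The mean fell from 1005 ± 94.6 to 142 ± 17.7 (SD, n = 2 each). The log2 difference was -2.60 ± 0.31 (SE, limma adjusted p = 0.00214), a 6.04-fold fall, and Sgf29 ranked 22 among 5583 genes by p. Leaving out each array in turn gave -2.70 to -2.49, each time with an adjusted p of 0.00805 or less. The gene has a single probe set here, so no other probe set on the array bears on it.

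Kat2a, also known as GCN5, is the acetyltransferase that gives SAGA and ATAC their activity. Kat2a was at 384.3 and 514.1 on the control arrays and at 265.0 and 171.5 on the anergic arrays. Both anergic arrays lay below both control arrays, but the spread within each group was wide. The log2 difference was -0.96 ± 0.35 (SE) with a 95% interval from -1.76 to -0.17, and it did not pass (limma adjusted p = 0.276). Its paralog Kat2b, which takes the same place in SAGA, was at 1289 and 1966 on the control arrays and at 1945 and 1855 on the anergic arrays. These values overlapped, with a log2 difference of 0.25 ± 0.27 (SE). Kat7, which acetylates histones in complexes with BRPF and ING proteins, was at 2047 and 1252 on the control arrays and at 1304 and 1322 on the anergic arrays (-0.28 ± 0.28, SE). A dimmer probe set of Kat2b was at -0.35, opposite in sign to the brighter, and that of Kat7 at -0.34.

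Other tested subunits of SAGA had smaller estimated differences than Sgf29. The deubiquitinase gene Usp22 was dim and varied widely, at 213.7 and 65.2 on the control arrays and at 93.8 and 51.7 on the anergic arrays (-0.60 ± 0.58, SE). Its partner Atxn7l3 was at 0.17, and the core subunit genes Tada1 and Taf10 were at -0.24 and -0.17. These subunits stand in a list of 44 acetyltransferase partners and coactivators, of which 21 were on the array and 19 were tested. None of the 19 passed in limma, and 1 had an unadjusted p under 0.05, as had 12.7% of all genes. By sign 6 were higher and 13 lower (58.1% of all genes were lower), with a median of -0.20. The 3 with the smallest p were Msl2, a subunit of the MSL acetyltransferase complex (-0.99 ± 0.39, SE), Dmap1, a TIP60 complex subunit (-0.71 ± 0.33, SE), and the bromodomain gene Brd2 (-0.56 ± 0.28, SE).

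**Figure D3:**
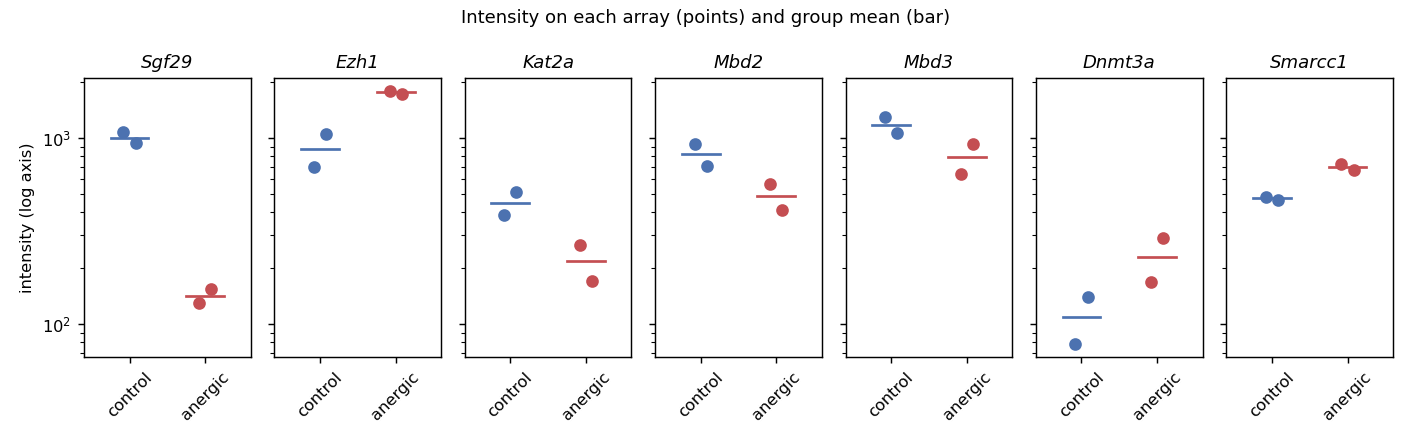
Intensity on each array (points, log axis) and group mean (bar) for the 7 chromatin genes with an unadjusted p under 0.1. Blue is control and red anergic, with array 1 at the left of each pair and array 2 at the right. In all 7 genes, which were picked by p, the groups do not overlap, as in 41.3% of all genes, and the gap is widest for Sgf29.

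The sequences before the transcription starts of Sgf29, Kat2a and Ezh1 are shown because these 3 had the smallest p among genes with an entry in RefSeq's promoter table (build GRCm38.p6). Each is the 250 bases upstream of the start, 5′ to 3′ on the gene's strand. They are chr7:126649059-126649308 (plus strand) for Sgf29, chr11:100712468-100712717 (minus strand) for Kat2a and chr11:101226464-101226713 (minus strand) for Ezh1. Capitals mark matches to the core of the ZNF143 site in Sgf29 and Kat2a and to the core of the NRF1 site in Ezh1, both binding motifs of transcription factors.
Sgf29: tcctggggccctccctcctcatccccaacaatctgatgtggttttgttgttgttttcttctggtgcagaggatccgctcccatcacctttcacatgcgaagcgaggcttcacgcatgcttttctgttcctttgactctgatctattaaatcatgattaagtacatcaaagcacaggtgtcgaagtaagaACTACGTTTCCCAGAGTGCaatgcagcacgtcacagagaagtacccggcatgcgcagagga
Kat2a: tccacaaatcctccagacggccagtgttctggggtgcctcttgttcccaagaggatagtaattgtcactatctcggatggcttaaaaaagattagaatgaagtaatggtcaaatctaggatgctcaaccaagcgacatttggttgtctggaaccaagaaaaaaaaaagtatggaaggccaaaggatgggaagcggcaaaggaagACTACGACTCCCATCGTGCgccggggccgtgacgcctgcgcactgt
Ezh1: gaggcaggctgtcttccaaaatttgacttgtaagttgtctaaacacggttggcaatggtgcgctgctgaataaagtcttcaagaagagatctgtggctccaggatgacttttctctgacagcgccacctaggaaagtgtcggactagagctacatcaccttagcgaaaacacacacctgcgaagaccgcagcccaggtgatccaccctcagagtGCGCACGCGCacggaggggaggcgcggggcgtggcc

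The ZNF143 core was searched on both strands, a motif chosen after these sequences had been read. It lay from base -61 to -43 in Sgf29 and from -46 to -28 in Kat2a, counted from the start. Of 36 chromatin genes with a promoter entry, Sgf29 and Kat2a alone held it, as did 137 of 32851 promoters (0.417%) and 61 of 4528 tested genes with an entry (1.35%). Among these 61 tested genes, 1 was called higher and 1, Sgf29, lower (3.28%, against 2.17% of all genes), with a median difference of -0.10. The motif was chosen after the Sgf29 sequence had been read, so nothing is read from this count. The NRF1 core was in Ezh1, Ezh2, Smarca4 and Smarca5 (4 of 36), in 10.1% of tested genes and in 3.74% of all promoters. The GC box GGGCGG was in 26 of the 36 chromatin genes (72.2%), in 63.9% of tested genes and in 32.7% of all promoters. Promoters of the chromatin genes had a median of 20 CpG in these 250 bases, those of all tested genes 16. A match describes letters only, and binding was not measured.

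No deacetylase gene passed the test. Of 8 tested genes none passed in limma, none had an unadjusted p under 0.05, and all lay between -0.31 and 0.32 with a median of 0.07. Hdac1 and Hdac2, the nuclear deacetylases of the Sin3, NuRD and CoREST complexes, were at -0.02 and 0.17. Hdac1 was at 841.6 and 1366 on the control arrays and at 885.7 and 1257 on the anergic arrays, and Hdac2 at 707.3 and 840.6 against 767.1 and 991.8. For both genes the control and anergic arrays overlapped. The 95% interval of Hdac1 ran from -0.72 to 0.67 and that of Hdac2 from -0.44 to 0.79.

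Hdac3, the enzyme of the NCoR and SMRT complexes, was at 360.9 and 217.7 on the control arrays and at 543.4 and 233.3 on the anergic arrays (0.32 ± 0.43, SE). Hdac5 and Hdac7 are class IIa deacetylases that leave the nucleus when phosphorylated, and Hdac7 is known from thymocytes. Hdac5 was at 871.6 and 1038 on the control arrays and at 691.7 and 836.9 on the anergic arrays. It was the only deacetylase whose groups did not overlap, and it differed by -0.31 ± 0.27 (SE). Hdac7 was at 730.5 and 896.1 against 843.6 and 1032 (0.20 ± 0.27, SE). The mainly cytoplasmic tubulin deacetylases Hdac6 and Sirt2 were at -0.08 and 0.18, and the mitochondrial Sirt3 at -0.26 ± 0.44 (SE).

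Few lysine demethylases could be measured. Kdm1a, also known as LSD1, the flavin-dependent demethylase of the CoREST complex, was at 167.8 and 214.4 on the control arrays and at 154.2 and 247.0 on the anergic arrays. Kdm3a, a demethylase of histone H3 at silenced lysines, was at 747.2 and 1361 on the control arrays and at 1235 and 953.4 on the anergic arrays. Its relative Kdm3b was at 2037 and 994.2 against 1780 and 1025. The groups overlapped for each of the 3 genes. Their differences lay between -0.07 and 0.10, none passed in limma and none had an unadjusted p under 0.05.

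No Polycomb gene passed the test. Ezh1 and Ezh2 are alternative catalytic subunits of the repressive complex PRC2, Ezh1 known mainly from resting and Ezh2 from dividing cells, and Eed and Suz12 are its core partners. Ezh1 was at 699.9 and 1055 on the control arrays and at 1786 and 1729 on the anergic arrays. Both anergic arrays were above both control arrays. Their means were 877.3 ± 251 for control and 1757 ± 40.5 for anergic arrays (SD, n = 2 each). The log2 difference was 1.01 ± 0.27 (SE) with a 95% interval from 0.39 to 1.62, and it did not pass (limma adjusted p = 0.117). Leaving out each array in turn gave 0.72 to 1.29, with adjusted p between 0.00402 (without control array 2) and 0.533. Such a fit has a group of 1 array, which is assumed to vary like the arrays of the other group. A pass there, for Ezh1 as for other genes, rests on that.

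Ezh2 was at 383.2 and 691.3 on the control arrays and at 568.2 and 695.3 on the anergic arrays, which overlapped (0.27 ± 0.34, SE). Eed was at 1404 and 1339 on the control arrays and at 1682 and 1826 on the anergic arrays. Its groups did not overlap, and the difference of 0.35 ± 0.24 (SE) did not pass (limma adjusted p = 0.64). Suz12 was at 561.9 and 558.0 against 598.7 and 496.1, a difference of -0.04. Its dimmer probe sets were at 0.01 and -0.33. Ring1, a ubiquitin ligase subunit of the other Polycomb complex, PRC1, was at 234.7 and 225.9 against 151.8 and 284.5 (-0.12). None of the 5 genes passed in limma, 1 had an unadjusted p under 0.05, as had 12.7% of all genes, and the median was 0.27.

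Among other Polycomb and heterochromatin genes 20 of 32 listed were on the array and 18 were tested. None passed in limma, and the median was -0.22. At an unadjusted p under 0.05, 2 were higher and 1 lower (6.32% and 6.38% of all genes). Bmi1, a PRC1 subunit, was at 1503 and 767.9 on the control arrays and at 3271 and 1977 on the anergic arrays (1.22 ± 0.36, SE, limma adjusted p = 0.145). Leaving out each array in turn gave 0.75 to 1.69, with adjusted p between 1.07e-05 (1.69, without control array 1) and 0.725, and only that 1 of the 4 fits passed. Mtf2, a partner of PRC2, differed by 0.82 ± 0.32 (SE), and Lbr, which tethers heterochromatin to the nuclear envelope, by -0.81 ± 0.24 (SE). Control array 1 was the higher control array for Bmi1 and the lower for Ezh1.

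No DNA methylation gene passed the test, and 5 of 7 were lower by sign, as were 58.1% of all genes. Mbd2, which binds methylated DNA and recruits the NuRD corepressor, was at 926.1 and 707.1 on the control arrays and at 565.9 and 408.3 on the anergic arrays. Its relative Mbd3, a NuRD subunit, was at 1294 and 1070 on the control arrays and at 639.3 and 932.5 on the anergic arrays. In both genes the anergic arrays lay below the control arrays. The log2 difference was -0.72 ± 0.30 for Mbd2 (SE, limma adjusted p = 0.355) and -0.59 ± 0.28 for Mbd3 (SE, limma adjusted p = 0.446). Mbd1, which also binds methylated CpG, was at -0.58 ± 0.38 (SE), the repair glycosylase gene Mbd4 at -0.20 and Mbd6 at 0.11.

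Dnmt1, which copies methylation onto new DNA strands after replication, was at 1026 and 1284 on the control arrays and at 747.2 and 963.0 on the anergic arrays (-0.42 ± 0.27, SE). Dnmt3a, which methylates new sites, was at 78.0 and 139.4 on the control arrays and at 168.1 and 291.5 on the anergic arrays. On the brightest probe sets the groups of both enzymes did not overlap, Dnmt1 with lower and Dnmt3a with higher anergic arrays. Each has a second, dim probe set below the filter, not tested, on which the groups overlapped. That of Dnmt3a was at 11.7 and 32.8 on the control arrays and at 23.9 and 4.4 on the anergic arrays. Dnmt3a differed by 0.90 ± 0.46 (SE), with a wide 95% interval from -0.12 to 1.92. None of the 7 genes passed in limma, 1 had an unadjusted p under 0.05, as had 12.7% of all genes, and the median was -0.42.

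Partners of DNA methylation were listed with 16 genes, of which 8 were on the array and 6 were tested. None passed in limma, and 2 had an unadjusted p under 0.05, as had 12.7% of all genes. By sign 5 of the 6 were lower, as were 58.1% of all genes. Hells, a remodeller needed for DNA methylation, was at 340.8 and 430.6 on the control arrays and at 92.3 and 102.0 on the anergic arrays. These groups were well apart, and the difference of -1.71 ± 0.38 (SE) lay just above the threshold (limma adjusted p = 0.0516). Leaving out each array in turn gave -1.87 to -1.55, with adjusted p between 0.0432 (without control array 1) and 0.237. The growth arrest gene Gadd45g was at -0.90 ± 0.35 (SE). Replication and proliferation markers stood beside this: of 20 tested none passed in limma, and 15 were lower by sign. Of them 3 were lower at an unadjusted p under 0.05, as were 6.38% of all genes. Their geometric mean was 303.9 and 373.8 on the control arrays and 227.5 and 340.8 on the anergic arrays, and their part in the values of Dnmt1 and Hells was not tested. Pola1, a polymerase subunit, was at -1.40, the ligase gene Lig1 at -1.25 and Pcna at -0.59, and leaving out each array in turn gave Pola1 adjusted p between 0.0373 (-1.59, without control array 1) and 0.428.

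Remodelling ATPases and their subunits gave small differences. Of 9 SWI/SNF and ISWI genes none passed in limma, none had an unadjusted p under 0.05, and the range was -0.41 to 0.53 with a median of -0.06. Smarca4 and Smarca2, better known as BRG1 and BRM, are the alternative ATPases of SWI/SNF. Smarca4 was at 1970 and 1889 on the control arrays and at 1958 and 1584 on the anergic arrays (-0.13, 95% interval -0.67 to 0.41). Smarca2 was at 582.6 and 416.1 against 514.0 and 355.8 (-0.19, 95% interval -0.92 to 0.54). On these probe sets the arrays overlapped for both ATPases, so neither difference exceeded the spread. A second, dim probe set of Smarca4 below the filter was at 82.6 and 50 against 9.9 and 22.1, and was not tested.

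Smarcc1, a scaffold subunit of SWI/SNF, was at 483.5 and 463.0 on the control arrays and at 723.9 and 671.9 on the anergic arrays. The groups did not overlap and the arrays of each were close together. The difference of 0.53 ± 0.28 (SE) was the largest of this group and did not pass (limma adjusted p = 0.49). Smarcd2, an accessory subunit with 4 probe sets, was at 2707 and 1767 against 1959 and 1371 (-0.41 ± 0.29, SE). Its other tested probe sets were at -0.24 and -0.35. Smarca5, the ATPase of the ISWI complexes, was at 665.2 and 357.0 against 742.6 and 502.4 (0.31 ± 0.36, SE), and its second probe set was at 0.30. The core subunit gene Smarcb1 was at 802.7 and 952.0 against 875.4 and 863.3, a difference of -0.01. Smarce1 was at -0.26, Smarcd1 at -0.06 and Smarcad1 at 0.02, with -0.38 at the second probe set of Smarcad1.

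The CHD remodellers, which carry chromodomains, were 4 tested genes. Chd4, the ATPase of NuRD, was bright, at 6512 and 5941 on the control arrays and at 6818 and 6078 on the anergic arrays. It differed by 0.05 ± 0.22 (SE), and its interval from -0.44 to 0.54 was the narrowest among the chromatin genes. Chd1, which binds methylated histone H3 at active genes, was at 537.9 and 1170 against 1018 and 1224 (0.47 ± 0.36, SE). Chd7 was at 460.9 and 434.7 against 536.2 and 606.9 (0.33 ± 0.29, SE), with both anergic arrays above both control arrays, and Chd8 was at 805.2 and 693.7 against 777.8 and 464.2 (-0.30 ± 0.31, SE). None passed in limma and none had an unadjusted p under 0.05.

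The 5 chromatin genes below the filter were dim in both groups. The deacetylase gene Sirt1 was between 10.9 and 66.6 over the 4 arrays, the remodeller gene Chd1l between 39.4 and 80.4, and the demethylase gene Kdm5b between 7.7 and 20.4. Kdm5a was at 79.6 and 66.8 on the control arrays and at 14.2 and 55.8 on the anergic arrays. Uhrf1, which guides Dnmt1 to newly copied DNA, was at 54.1 and 159.4 against 48.7 and 135.8. These values were not tested, and low signal on a probe set does not show that a gene is silent.

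Ratios of related genes within an array describe how their values stood to each other. Of 15 listed pairs, 8 had both genes tested. The log2 ratio of Ezh2 to Ezh1 was -0.82 and -0.59 on the control arrays and -1.60 and -1.28 on the anergic arrays. That of Kat2a to Kat2b was -1.67 and -1.88 on the control arrays and -2.75 and -3.23 on the anergic arrays. Both ratios were lower on each anergic array than on each control array, by 0.74 and 1.21 in their means. The ratios of Hdac7 to Hdac5 and of Sirt2 to Sirt3 were higher on both anergic arrays, by 0.51 and 0.44. In these 4 pairs the exact two-sided permutation p was 0.333, the smallest that 2 arrays against 2 can give, and 0.667 after adjustment over the 8 pairs. No pair could therefore pass, and no conclusion is drawn from the separation. Ezh1 and Kat2a also had a small p above, so their pairs are not separate support. The ratios of Hdac1 to Hdac2, Smarca4 to Smarca2, Smarcd1 to Smarcd2 and Mbd2 to Mbd3 overlapped between the groups, with mean differences between -0.19 and 0.35.

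**Figure D4:**
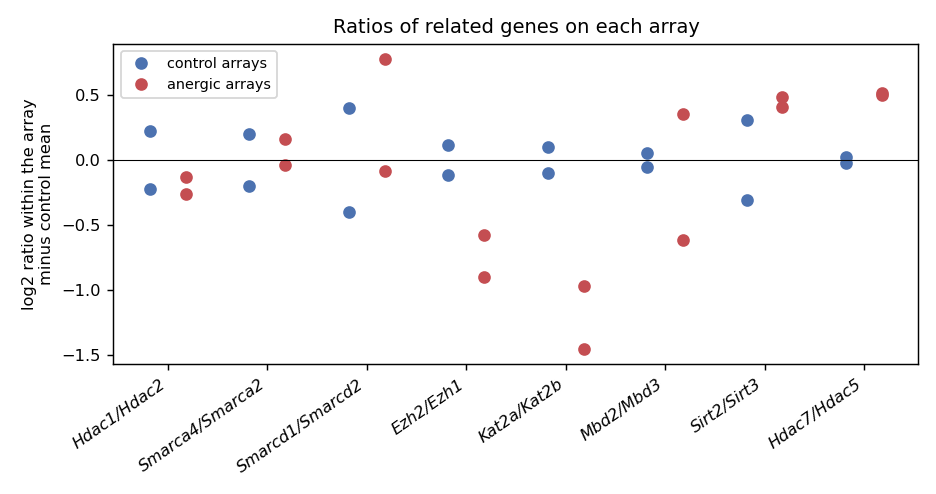
Log2 ratio of related genes within each array, minus the mean of the control arrays (y axis), for the 8 pairs with both genes tested. Blue points are control and red points anergic arrays. The anergic points of Ezh2/Ezh1 and Kat2a/Kat2b lie below, and those of Hdac7/Hdac5 and Sirt2/Sirt3 above, their control points.

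No gene among the other subunits and partners of these enzymes passed the test. Of 24 listed subunits of SWI/SNF and ISWI complexes 16 were on the array and 15 were tested, with a median of 0.07. Of the 15, 1 had an unadjusted p under 0.05 in limma, as had 12.7% of all genes. That gene was Dpf3, an accessory subunit (1.16 ± 0.43, SE), followed by Actb at -0.72 and Actl6a at -0.44. All 13 corepressor and NuRD subunits on the array, of 26 listed, were tested. Of these, 11 were higher by sign, as were 41.9% of all genes, and none had an unadjusted p under 0.05, with a median of 0.12. The NuRD gene Gatad2a was at 0.57 ± 0.26 (SE), the NCoR complex gene Tbl1xr1 at 0.41 and the Sin3 complex gene Suds3 at 0.38.

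Histone methyltransferases and their partners were 22 on the array of 43 listed, and 16 were tested. None passed in limma, 12 of 16 were lower by sign, as were 58.1% of all genes, and the median was -0.36. Kmt5a, which methylates histone H4 during the cell cycle, was at 404.9 and 471.6 on the control arrays and at 844.7 and 1029 on the anergic arrays (1.04 ± 0.28, SE, limma adjusted p = 0.112). Ehmt2, the silencing methyltransferase G9a, was at 850.2 and 766.9 against 416.6 and 361.9 (-1.003 ± 0.28, SE, adjusted p = 0.128). Wdr5, a core subunit of the complexes that methylate histone H3 at active promoters, was at 892.7 and 666.9 against 463.2 and 279.2 (-1.04 ± 0.33, SE, adjusted p = 0.188). These 3 genes had the smallest p of the list. In each the groups did not overlap, as in 41.3% of all genes, and none passed. Of the 16 genes tested, 3 had higher and 5 lower anergic arrays without overlap. Leaving out each array in turn gave Kmt5a 0.91 to 1.18, with adjusted p between 0.0465 (without control array 2) and 0.523. Wdr5 was then between -1.38 and -0.70, with adjusted p between 0.0489 (without control array 2) and 0.688.

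Of 34 listed histone chaperones and architectural proteins 24 were on the array and 22 were tested. None passed in limma, and 2 had an unadjusted p under 0.05, as had 12.7% of all genes. By sign 16 were lower (58.1% of all genes), with a median of -0.18. Hmgb2, a DNA-bending protein, was at 609.0 and 1004 on the control arrays and at 289.7 and 235.1 on the anergic arrays (-1.48 ± 0.33, SE, limma adjusted p = 0.0577). Leaving out each array in turn gave -1.83 to -1.14, with adjusted p between 0.00197 (without control array 1) and 0.226. Satb1, which organises chromatin loops in T cells, was at 2667 and 2663 on the control arrays and at 1599 and 1449 on the anergic arrays (-0.80 ± 0.23, SE, limma adjusted p = 0.143). The histone chaperone gene Npm1 was at -0.51 ± 0.23 (SE).

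**Figure D5:**
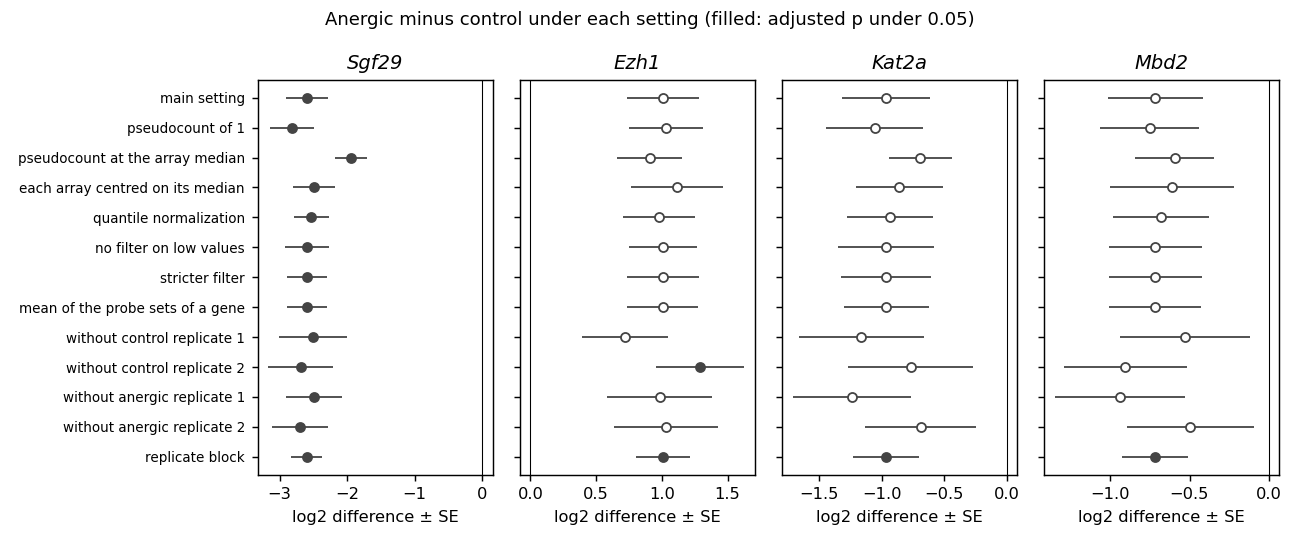
Log2 difference of anergic minus control cells with its SE (x axis) for Sgf29, Ezh1, Kat2a and Mbd2 under the main setting and each of 12 other settings (rows). Filled points have an adjusted p under 0.05. Sgf29 is filled in every row, Ezh1 in those without control replicate 2 and with a replicate block, and Kat2a and Mbd2 in the last of these.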

How the data were processed

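The authors deposited 1 intensity per probe set and array on a linear scale. Per the labels' protocols, Trizol was used for RNA and the cRNA carried biotin. Scanner software, background correction and the summary of probes were not given in the sources used here. Groups came from the sample titles. Of 12488 probe sets 66 controls were left out. Names came from GEO's platform annotation (1 symbol for 10833 probe sets, several for 396, none for 1193), and the symbols of all 45 chromatin genes matched their gene IDs in the RefSeq table of GRCm38.p6.

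Intensities were transformed as log2(value + 29.15), the pseudocount being the median over arrays of the 20th percentile. Probe sets with a mean above the 40th percentile were kept (7453), and each gene took its brightest (5583 genes). The fit used limma 3.58.1 under R 4.3.3 (intensity trend, two-sided, Benjamini-Hochberg over all genes, threshold 0.05). The number of arrays limits precision. The tested genes were kept across alternatives, except where the filter was the choice changed. The members, lists and tests were chosen with earlier results of these data known. Array values are given for the 4 chromatin genes with an unadjusted p under 0.05, for the 3 with the smallest p in each role and for further members. In related lists the genes that passed and the 3 with the smallest p are named.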

Additional observations from a re-analysis of the deposited data

How the results depend on the processing

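Under each of the 12 other settings Sgf29 passed and fell, with differences from -2.82 (pseudocount of 1) to -1.94 (pseudocount at the array median). The sign was the same under every setting in 18 of the 40 chromatin genes and turned at least once in the other 22. Centring each array on its median moved the median difference of all genes from -0.09 to 0.02. It gave 60 calls over all genes, 47 higher and 13 lower, against 74 and 47. It turned the sign of Hdac6 (0.025), Hdac1 (0.084), Kdm3b (0.032), Suz12 (0.0696), Smarcd1 (0.046), Smarcb1 (0.099) and Eif3c (0.089). Quantile normalization turned Suz12 (0.00077) and Smarcb1 (0.0043), and the mean of a gene's probe sets turned Kat2b (-0.051) and Smarcad1 (-0.18). Hells also passed with the pseudocount at the array median and with the mean of probe sets, and Hmgb2 with the latter. Leaving out 1 array at a time gave 50 to 280 calls over all genes (280 without control array 2, 269 without control array 1, 67 without anergic array 2 and 50 without anergic array 1) and 0 to 1 chromatin gene called higher. Signs turned within these ranges: Bola2 -0.80 to 0.00053, Chd1 -0.066 to 1.01, Chd4 -0.033 to 0.13, Chd8 -0.65 to 0.055, Eif3c -0.17 to 0.14, Ezh2 -0.13 to 0.67, Hdac1 -0.36 to 0.32, Hdac2 -0.0074 to 0.35, Hdac3 -0.24 to 0.88, Hdac6 -0.21 to 0.048, Kat2b -0.049 to 0.55, Kat7 -0.63 to 0.067, Kdm1a -0.26 to 0.33, Kdm3a -0.32 to 0.52, Kdm3b -0.58 to 0.43, Ring1 -0.52 to 0.27, Sirt3 -0.64 to 0.11, Smarca2 -0.44 to 0.058, Smarca4 -0.28 to 0.021, Smarca5 -0.12 to 0.73, Smarcad1 -0.00045 to 0.047, Smarcb1 -0.13 to 0.11, Smarcd1 -0.24 to 0.12, Suz12 -0.17 to 0.092. The titles number the arrays 1 and 2 in both groups without saying what the number means, and deviations of same-numbered arrays correlated at 0.522 over genes. With the replicate number as a block, 707 genes were called over all genes, 1 chromatin gene was higher (Ezh1, adjusted p = 0.00304) and 3 were lower (Sgf29, Kat2a with 0.0207 and Mbd2 with 0.0288, limma). Under that block 15 of 23 named genes of the related lists passed too, with adjusted p from 0.000282 to 0.046 (Bmi1, Dpf3, Ehmt2, Gadd45g, Hells, Hmgb2, Kmt5a, Lbr, Lig1, Msl2, Mtf2, Pcna, Pola1, Satb1 and Wdr5), as did the neighbours Cln3, Coro1a and Nupr1 of Sgf29. Over all genes 707 of 5583 passed under the block. The 23 genes had been named for a small p in the main fit, so a high share was built in. Nothing is read from that share. The cause of these changes was not tested. With 2 arrays per group, 1 array can decide a call, and dim probe sets have only a level near background.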

Other observations

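The protein-coding genes that lie next to Sgf29 on chromosome 7 in RefSeq's order, 5 on either side, were looked at after the values of Sgf29 had been seen. Of these 10 neighbours 5 were tested, all 5 were lower by sign in anergic cells, 3 had an unadjusted p under 0.05 and none passed in limma. Over all genes 58.1% were lower by sign and 6.38% were lower with such a p. The stress-induced gene Nupr1, the nearest on one side, was at 244.5 and 125.2 on the control arrays and at 29.1 and 82.5 on the anergic arrays (-1.35 ± 0.55, SE, limma adjusted p = 0.328). Cln3, which encodes a lysosomal membrane protein, was at 1612 and 1346 against 718.9 and 882.9 (-0.86 ± 0.26, SE). Coro1a, an actin-binding protein of leukocytes, was at 4317 and 5467 against 2251 and 3676 (-0.75 ± 0.28, SE), and leaving out each array in turn gave -1.10 to -0.40, with limma adjusted p between 0.0296 (-0.92, without control array 1) and 0.964. In these 3 genes the anergic arrays lay below the control arrays, as in 24% of all genes, and each differed by less than Sgf29 did. Bola2 was at -0.40 and the translation factor gene Eif3c at -0.02. Of 10 neighbours of Ezh1, 2 were tested, Tubg1 at 0.14 and Coa3 at 0.45, and neither passed in limma or had an unadjusted p under 0.05.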
